A study of Bos taurus with 96 samples.

Results

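Longissimus dorsi muscle (LD) was compared with the subcutaneous fat over the rump (SC) of steers raised on pasture after weaning. The members are 36 of the 96 arrays of the study, chosen by the sample labels alone: the 24 arrays labelled as LD with pasture feeding and the 12 arrays labelled as SC. LD was represented by 8 Angus, 8 Hereford and 8 Wagyu x Angus arrays, and SC by 4 arrays of each breed, all from SC samples labelled with pasture feeding. The age field of every sample reads 259 days, which in the methods is the time spent on grain. According to the methods, tissue was taken at slaughter, the pasture animals had no supplement in the period just after weaning, and LD was sampled with its intramuscular fat (IMF) in situ. The methods also state that part of the LD samples came from an earlier kill, whereas the fat depots came from the later kill alone. Since the labels do not say which LD arrays those are, kill was not analysed here and cannot be separated from tissue. The labels tie no LD array to an SC array of the same animal. Because 1 animal could supply both tissues, the p-values below describe the spread between arrays rather than between pairs of tissues of 1 animal.

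Skeletal muscle fibres are long multinucleate cells filled with myofibrils, in which myosin thick filaments slide along actin thin filaments when calcium is released from the sarcoplasmic reticulum. They pay for contraction with phosphocreatine, glycogen breakdown, glycolysis and mitochondrial respiration. White adipocytes hold a single large droplet of triacylglycerol coated with perilipin, and in cattle adipose tissue is the main site at which fatty acids are made, largely from acetate. Besides adipocytes, adipose tissue holds capillaries, macrophages, fibroblasts and preadipocytes in a collagen matrix.

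Expression is given as a log2 signal on a scale where 0 is the 75th percentile of the array and 1 unit is a doubling of the processed signal. A level is therefore relative to the total RNA on the array, and values of different genes are not comparable because each probe hybridises differently. LD and SC arrays were read with similar sensitivity: 66.2% to 81.1% of the probes were well above background on the LD arrays and 72.4% to 82.1% on the SC arrays. Correlations between arrays lay between 0.966 and 0.992 within LD, between 0.973 and 0.987 within SC, and between 0.795 and 0.852 across the tissues. No slide held arrays of both tissues. The LD arrays were scanned on 3 days, 8 on each, whereas 11 of the 12 SC arrays were scanned on the first day and 1 on the last.

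The labels were checked against markers of both tissues. The score of an array is the median of its log2 values over a gene list. The score of 8 skeletal fibre markers (ACTA1, CKM, MYH1, MYH2, MYH7, TNNT1, TNNT3 and MB) ran from 8.38 to 9.07 on the LD arrays, with a median of 8.67, and from -3.73 to -2.67 on the SC arrays, with a median of -3.33. The score of 7 adipocyte markers (PLIN1, ADIPOQ, CIDEC, LIPE, FABP4, LEP and PPARG) ran from -2.43 to 0.95 on the LD arrays, with a median of -0.92, and from 3.83 to 4.50 on the SC arrays, with a median of 4.28. Every array stood with its label for both scores. The muscle side was uniform across arrays, while adipocyte markers were spread over more than 3 log2 units within LD.

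**Figure D1:**
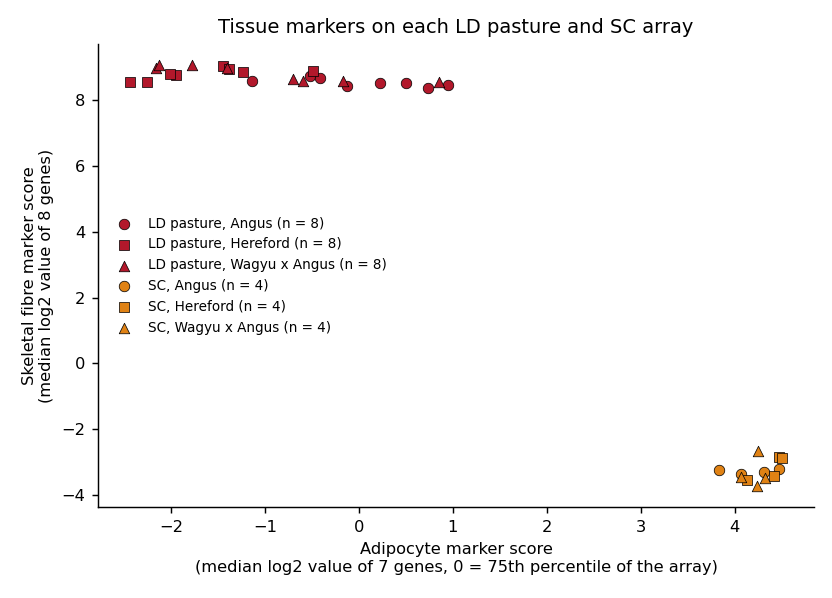
Adipocyte marker score (x axis, median log2 value of 7 genes) against skeletal fibre marker score (y axis, median log2 value of 8 genes) for each of the 24 LD pasture and 12 SC arrays, with 0 at the 75th percentile of the array. LD arrays lie between 8.38 and 9.07 on the fibre axis and between -2.43 and 0.95 on the adipocyte axis, and SC arrays lie between -3.73 and -2.67 and between 3.83 and 4.50.

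Most of the transcriptome differed between the tissues. Of 34227 probes, 28617 differed at an adjusted p under 0.05 with breed as covariate, which is 83.6% of those tested. LD was higher for 14717 probes (43.0%) and SC for 13900 (40.6%), and the median difference over all probes was 0.05. A difference of at least 4-fold was found for 2751 probes higher in LD (8.04%) and 3251 higher in SC (9.50%), and 13385 probes (39.1%) had no overlap between the 24 LD and the 12 SC arrays. Counted by gene, with the brightest probe standing for each of 10655 named genes, 4668 were higher in LD, 4541 were higher in SC and 1446 were not called. Against this background a significant difference alone says little about a gene, and direction and size carry the description below. Within the first scan day alone, with 8 LD arrays (4 Hereford, 4 Wagyu x Angus and no Angus) and 11 SC arrays of all breeds, 27539 probes passed. The last scan day held a single SC array and gives no check of its own.

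Across the lists, 10 muscle programmes with 217 genes and 9 fat programmes with 203 genes were followed. A gene that stood in more than 1 list was counted once in these totals. Of the muscle programme genes, 197 were measured, and 183 of these (92.9%) were higher in LD, 11 were higher in SC and 3 were not called, against 43.0% and 40.6% over all probes. Their median difference was 5.58 and 152 were at least 4-fold higher in LD. Of the fat programme genes, 179 were measured, and 137 (76.5%) were higher in SC, 31 were higher in LD and 11 were not called. Their median difference was -2.06 and 92 were at least 4-fold higher in SC. The fat side was thus more mixed than the muscle side. These tissues are mixtures of cells, and in bulk RNA fewer cells of a type and less RNA per cell cannot be told apart.

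**Figure D2:**
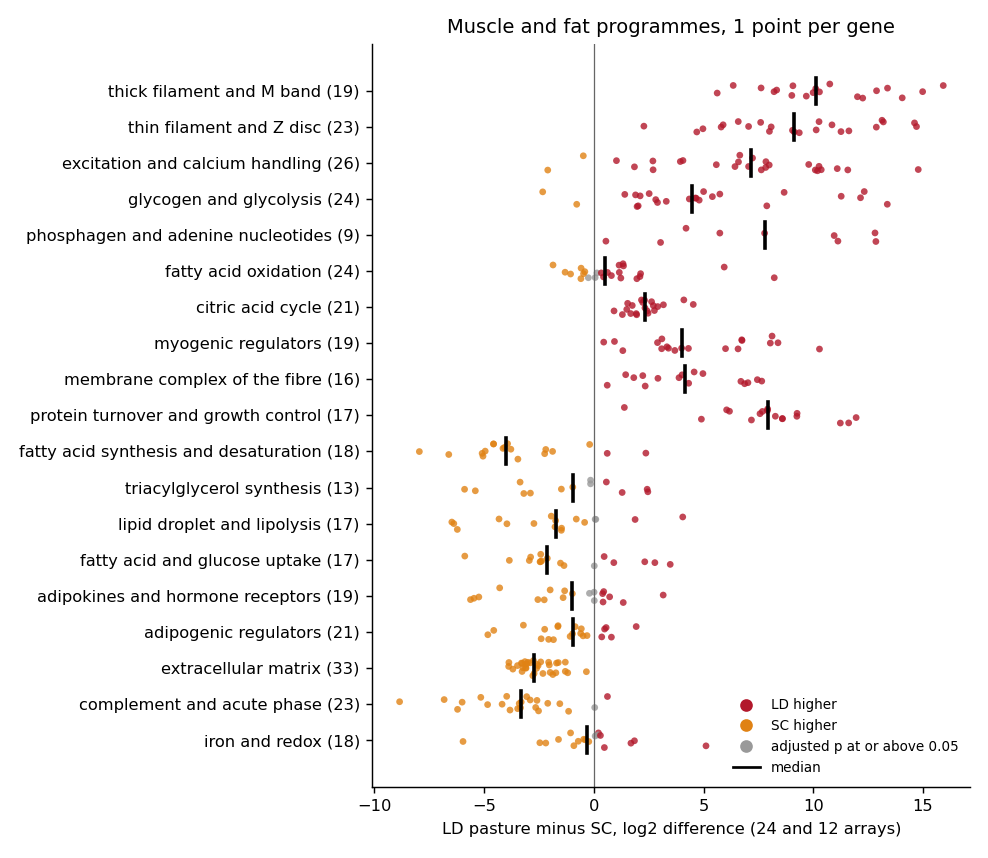
LD pasture minus SC difference on the log2 scale (x axis) of each measured gene of the 10 muscle and 9 fat programmes (y axis, number of genes in brackets), with red for LD higher, orange for SC higher, grey for an adjusted p of 0.05 or more, and a black line at the median of each list. Medians run from 0.53 for fatty acid oxidation to 10.11 for the thick filament on the muscle side, and from -4.0 for fatty acid synthesis to -0.31 for iron and redox on the fat side.

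The contractile apparatus gave the widest differences. All 19 genes of the thick filament and M band and all 23 measured genes of the thin filament and Z disc were higher in LD, with median differences of 10.11 and 9.13. MYL2, the regulatory light chain of slow myosin, ran from 8.69 to 9.31 on the LD arrays, with a median of 8.81, and from -8.09 to -3.74 on the SC arrays, with a median of -6.14. Its difference of 14.98 ± 0.26 (SE, adjusted p = 1.2e-33) was the highest among genes detected (read above background) in 50% or more of the arrays in both tissues, and even so only 7 of the 12 SC arrays detected it. A fold change of this size is set on its SC side by signals near the detection limit. TTN, the giant spring protein titin, was above background on all arrays of both tissues, with 8.59 to 9.10 (median 8.77) in LD and -4.18 to -2.24 (median -3.21) in SC. Its difference was 12.01 ± 0.13 (adjusted p = 4.31e-40).

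Slow and fast fibre genes moved together. MYH7, the slow myosin heavy chain, ran from 8.38 to 9.12 in LD (median 8.76) and from -2.42 to -1.36 in SC (median -1.99), a difference of 10.75 ± 0.09. MYH1, a fast heavy chain, differed by 14.05 ± 0.23 and was above background on 7 of the 12 SC arrays. MYH2, another fast heavy chain, differed by 15.92 ± 0.21 but was above background on only 1 SC array. The heavy chain genes are similar in sequence, so that their probes may share signal. TNNC1, the calcium sensor of slow fibres, differed by 13.13 ± 0.20, NEB (nebulin, the thin filament ruler) by 12.87 ± 0.11, and MYBPC2 (a fast fibre myosin binding protein) by 12.25 ± 0.14. ACTA1, the skeletal actin, ran from 9.03 to 9.83 in LD and from -1.41 to 0.66 in SC. MYLK2, the kinase of skeletal myosin light chain, was above background on no SC array and on all 24 LD arrays, and was at least 329-fold higher in LD. That bound takes the lowest signal read above background on each SC array in place of the unmeasured level.

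The triad, where the transverse tubule meets the sarcoplasmic reticulum, was also a muscle programme. Of 26 measured genes of excitation and calcium handling, 24 were higher in LD, with a median difference of 7.14. ATP2A1, the fast fibre calcium pump, ran from 8.58 to 9.04 in LD (median 8.73) and from -3.45 to -2.11 in SC (median -2.84), a difference of 11.57 ± 0.09 (adjusted p = 9.55e-44). RYR1, the calcium release channel, differed by 10.36 ± 0.19, TRDN, which anchors calsequestrin to it, by 10.26 ± 0.09, and JSRP1, a junctional protein, by 10.19 ± 0.13. JPH1, which holds the membranes of the triad together, differed by 11.09 ± 0.13. Sarcolipin (SLN), the small inhibitor of the calcium pump, differed by 14.78 ± 0.16, with 2 SC arrays above background. Among subunits of the acetylcholine receptor, CHRNB1 differed by 4.06 ± 0.06, CHRND by 3.94 ± 0.19 and CHRNE by 2.70 ± 0.22.

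The exceptions were PVALB and CHRNA1. Parvalbumin (PVALB) is a calcium buffer of fast fibres in small mammals, and here it was higher in SC: -3.02 to 0.09 in LD (median -1.81) against -0.76 to 2.03 in SC (median 0.58). The arrays of the tissues overlapped, and the difference was -2.10 ± 0.31 (adjusted p = 1.82e-07), a call that was not kept in every alternative setting. CHRNA1, the alpha subunit of the receptor, differed by -0.48 ± 0.14 on its brighter probe, and its other probe was called in the opposite direction.

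The phosphagen system and the enzymes of adenine nucleotides were higher in LD for all 9 genes, with a median difference of 7.78. CKM, the cytosolic creatine kinase of muscle, ran from 8.34 to 9.06 in LD (median 8.66) and from -4.66 to -3.34 in SC (median -4.28), a difference of 12.85 ± 0.10 (adjusted p = 7.84e-45). CKMT2, its mitochondrial partner, differed by 12.81 ± 0.10, and AMPD1, the muscle AMP deaminase, by 11.12 ± 0.19. SLC6A8, the creatine transporter, differed by 3.04 ± 0.14.

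Glycogen use and glycolysis followed the same direction for 22 of 24 genes, with a median difference of 4.49. The step that frees glucose from glycogen was far apart: PYGM, the muscle phosphorylase, ran from 5.74 to 7.09 in LD (median 6.25) and from -7.04 to -4.73 in SC (median -5.92, 5 of 12 arrays above background). Its difference was 12.32 ± 0.18, and 5 of the 12 SC arrays read it above background. PPP1R3A, which targets a phosphatase to glycogen in muscle, was above background on no SC array and at least 2370-fold higher in LD. Along the pathway the differences were 7.88 ± 0.07 for PFKM, 1.41 ± 0.08 for ALDOA, 2.11 ± 0.08 for GAPDH, 13.37 ± 0.13 for PGAM2, 8.67 ± 0.08 for ENO3, 4.80 ± 0.12 for PKM and 5.40 ± 0.12 for LDHA. The steps were far from equal, with ALDOA lowest and PGAM2 highest among these. The exceptions were LDHB, the heart form of lactate dehydrogenase, which was higher in SC (4.13 to 6.08 in LD and 6.81 to 7.69 in SC, difference -2.33 ± 0.15), and GBE1, the glycogen branching enzyme (difference -0.78 ± 0.13).

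Mitochondrial genes were higher in LD by smaller amounts. All 21 measured genes of pyruvate entry and the citric acid cycle were higher in LD, with a median difference of 2.31 and a range of 0.92 to 4.53. CS, citrate synthase, ran from 5.45 to 6.24 in LD (median 5.87) and from 3.27 to 3.77 in SC (median 3.48), a difference of 2.33 ± 0.08 (adjusted p = 7.96e-25). IDH2, the NADP-linked isocitrate dehydrogenase of mitochondria, differed by 4.53 ± 0.08, and SDHA, a subunit of complex II, by 0.92 ± 0.07. Of 74 genes of the respiratory chain, 69 were higher in LD and 5 in SC, with a median difference of 1.84. The 5 exceptions were COX6A1 (-3.00 ± 0.08), COX8A (-2.16 ± 0.07), COX7A2 (-1.76 ± 0.09), NDUFA4L2 (-1.28 ± 0.12) and COX4I2 (-0.73 ± 0.15). Of these, 4 are forms of cytochrome c oxidase subunits for which another isoform exists. The muscle isoforms COX6A2, COX7A1 and COX8B were higher in LD by 10.83 ± 0.08, 4.92 ± 0.09 and 7.18 ± 0.18.

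The ribosomes of the mitochondrion and the cytosol did not behave alike. Of 75 mitochondrial ribosomal protein genes, 69 were higher in LD and 4 in SC, with a median difference of 1.18. Of 74 cytosolic ribosomal protein genes, 38 were higher in LD, 17 were higher in SC and 19 were not called, with a median difference of 0.11, but under quantile normalization 3 were higher in LD and 64 in SC with a median of -0.47, so that no direction is given for this family. RPL3 was the only cytosolic ribosomal gene with a difference of at least 4-fold: it ran from 3.21 to 4.01 in LD (median 3.51) and from 6.07 to 6.33 in SC (median 6.16), a difference of -2.67 ± 0.07 (adjusted p = 4.09e-28). Its paralog RPL3L ran from 4.59 to 5.36 in LD (median 5.07) and from -5.71 to -3.79 in SC (median -5.30), a difference of 10.14 ± 0.13.

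Fatty acid oxidation was shared between the tissues. Of 24 genes, 14 were higher in LD, 7 were higher in SC and 3 were not called, with a median difference of 0.53, and only 4 were at least 4-fold apart. Those 4 were UCP3, a mitochondrial carrier of muscle (8.22 ± 0.16), FABP3, the fatty acid binding protein of muscle and heart (5.94 ± 0.28), MLYCD, which degrades malonyl-CoA (2.13 ± 0.17), and ACADM, the medium-chain acyl-CoA dehydrogenase (2.10 ± 0.08). FABP3 varied widely among LD arrays, from 2.54 to 6.33, yet stayed above all SC arrays (-2.85 to -0.59). DECR1, an auxiliary enzyme for unsaturated fatty acids, was higher in SC (-1.86 ± 0.11), as was ACAA2, the thiolase of the last step (-1.31 ± 0.11). The 3 genes not called were ACADS (0.14 ± 0.14), ETFB (0.06 ± 0.07) and ACSF3 (-0.25 ± 0.19).

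All 19 measured myogenic regulators were higher in LD, with a median difference of 4.00. MYOG, which drives the differentiation of myoblasts, ran from 1.78 to 3.52 in LD (median 2.85) and from -3.50 to -2.81 in SC (median -3.22), a difference of 6.0 ± 0.13. MYF6, the myogenic factor of mature fibres, differed by 6.75 ± 0.16, and SMYD1, a methyltransferase needed for myofibril assembly, by 10.28 ± 0.15 with 3 SC arrays above background. RBM20 and RBM24, which direct splicing of muscle transcripts, differed by 6.57 ± 0.13 and 6.74 ± 0.15. PPARGC1A, a coactivator of mitochondrial genes, differed by 3.09 ± 0.12. EYA4, a coactivator of homeobox factors, was at least 162-fold higher in LD, with no SC array above background. MYOD1 stood apart within this list, with 1.46 to 3.50 in LD, 1.16 to 2.34 in SC and a difference of 0.45 ± 0.17 (adjusted p = 0.0133), which was no longer called under quantile normalization (0.28, adjusted p = 0.107).

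The dystrophin complex and the membrane cytoskeleton were higher in LD for all 16 measured genes, with a median difference of 4.17. DMD, dystrophin itself, differed by 2.92 ± 0.13, the sarcoglycan SGCA by 4.97 ± 0.08, and CAV3, the caveolin of muscle, by 7.45 ± 0.15 with 4 of the 12 SC arrays above background. All 17 measured genes of protein turnover and growth control were higher in LD as well, with a median of 7.92. The ubiquitin ligase TRIM63 ran from 4.29 to 6.14 in LD (median 5.32) and from -8.41 to -3.02 in SC (median -6.10, 5 arrays above background), a difference of 11.61 ± 0.31. FBXO32, the other ligase of muscle wasting, differed by 4.90 ± 0.23, the muscle calpain CAPN3 by 11.23 ± 0.13, and KLHL41, which stabilises the sarcomere, by 11.95 ± 0.07 (adjusted p = 1.44e-48).

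Among named genes outside the lists, the 5 with the highest bounds against an SC side below background also included DHRS7C, a dehydrogenase of the sarcoplasmic reticulum (at least 2639-fold), SMPX, a small muscle protein (at least 2219-fold) and GADL1, a decarboxylase of amino acids (at least 949-fold). MYH13, another myosin heavy chain gene, differed by 12.08 ± 0.16 on its only probe, which may share signal with the other heavy chains. RABEP2, an endosomal protein, ranked among the 15 highest differences with 11.81 ± 0.20 on its brightest probe, but its other probes gave -1.63 ± 0.05 and -1.64 ± 0.10, so that its direction depends on the probe. Probes of 1 gene were called in opposite directions for 690 of the 6341 genes with more than 1 probe.

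Turning to fat, the making of fatty acids was the programme with the widest median difference. Of 18 measured genes of fatty acid synthesis and desaturation, 16 were higher in SC, 14 of them at least 4-fold, with a median difference of -4.0. FASN, fatty acid synthase, ran from 1.66 to 4.67 in LD (median 2.77) and from 7.54 to 8.50 in SC (median 7.87), a difference of -5.05 ± 0.24 (33.1-fold, adjusted p = 1.78e-20). SCD, the stearoyl-CoA desaturase, ran from 2.27 to 4.71 in LD (median 3.57) and from 8.28 to 9.07 in SC (median 8.69), a difference of -5.09 ± 0.18 (34-fold). No LD array reached the lowest SC array for either gene.

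Every supporting branch of lipogenesis had members of the same direction. ACACA, the acetyl-CoA carboxylase of lipogenesis, differed by -4.57 ± 0.26 and ACSS2, which activates acetate, by -4.14 ± 0.12. NADPH supply differed too: -3.78 ± 0.08 for PGD, -4.07 ± 0.12 for the cytosolic IDH1 and -2.24 ± 0.14 for ME1. ACLY, which cleaves citrate, differed by -2.19 ± 0.09. The elongases ELOVL6 and ELOVL5 differed by -6.61 ± 0.32 and -4.95 ± 0.19. THRSP, a nuclear protein tied to lipogenesis, had the widest difference of the list, -7.95 ± 0.62, and also the widest spread in LD, from -6.80 to 1.68 (median -1.64), against 4.85 to 6.35 in SC (median 5.68). The exceptions were FADS2, a desaturase of polyunsaturated fatty acids, higher in LD by 2.37 ± 0.12, and SCD5, by 0.61 ± 0.22, which was no longer called with slide as a random block (0.54, adjusted p = 0.206).

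The assembly of triacylglycerol was split. Of 13 measured genes, 7 were higher in SC, 4 were higher in LD and 2 were not called, with a median difference of -0.96. DGAT2, an enzyme of the last step, ran from 0.82 to 3.54 in LD (median 2.06) and from 6.95 to 7.89 in SC (median 7.57), a difference of -5.40 ± 0.24, while DGAT1, the other enzyme of that step, differed by -1.48 ± 0.11. GPAM, of the first acylation, differed by -3.19 ± 0.18 and AGPAT2, of the second, by -2.89 ± 0.17. PCK2 and PCK1, the mitochondrial and cytosolic PEP carboxykinases of glyceroneogenesis, differed by -5.89 ± 0.17 and -3.36 ± 0.23. GPD1, which makes glycerol 3-phosphate from glycolysis, was instead higher in LD by 1.29 ± 0.11, as was the phosphatidate phosphatase LPIN1 by 2.43 ± 0.16. GPAT3 (-0.15 ± 0.25) and AGPAT3 (-0.15 ± 0.10) were not called.

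Lipid droplet proteins differed unevenly. Of 17 measured genes of droplets and lipolysis, 13 were higher in SC, 2 were higher in LD and 2 were not called, with a median difference of -1.74. PLIN1, which coats the droplet and gates lipolysis, ran from -3.55 to 1.26 in LD (median -1.16) and from 4.50 to 5.17 in SC (median 4.92), a difference of -6.22 ± 0.38 (74.4-fold, adjusted p = 3.83e-17). CIDEC, which fuses droplets, differed by -6.47 ± 0.50, CIDEA by -4.32 ± 0.16, and G0S2, an inhibitor of adipose triglyceride lipase, by -6.38 ± 0.24. The lipases themselves were less far apart, with -3.96 ± 0.19 for LIPE, -1.77 ± 0.10 for PNPLA2 and -1.47 ± 0.09 for MGLL. FITM1, a droplet-forming protein of muscle, was higher in LD (3.54 to 4.40 against -0.33 to 0.19, difference 4.05 ± 0.07), while FITM2 was higher in SC (-1.74 ± 0.10) on its brightest probe. BSCL2 (0.06 ± 0.10) and RAB18 (0.09 ± 0.05) were not called.

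Uptake genes divided by transporter. Of 17 measured genes, 11 were higher in SC, 5 were higher in LD and 1 was not called, with a median difference of -2.12. FABP4, the adipocyte fatty acid binding protein, ran from -0.52 to 5.62 in LD (median 3.11) and from 8.22 to 8.98 in SC (median 8.65), a difference of -5.88 ± 0.48. LPL, which frees fatty acids from lipoproteins, differed by -2.94 ± 0.19 and CD36, which takes them up, by -2.42 ± 0.11. Higher in LD were the VLDL receptor VLDLR (2.78 ± 0.11), the fatty acid transporters SLC27A1 (2.32 ± 0.10) and SLC27A6 (3.48 ± 0.34), and the insulin-responsive glucose transporter SLC2A4 (0.91 ± 0.10). SLC27A4 was not called (0.02 ± 0.12).

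**Figure D3:**
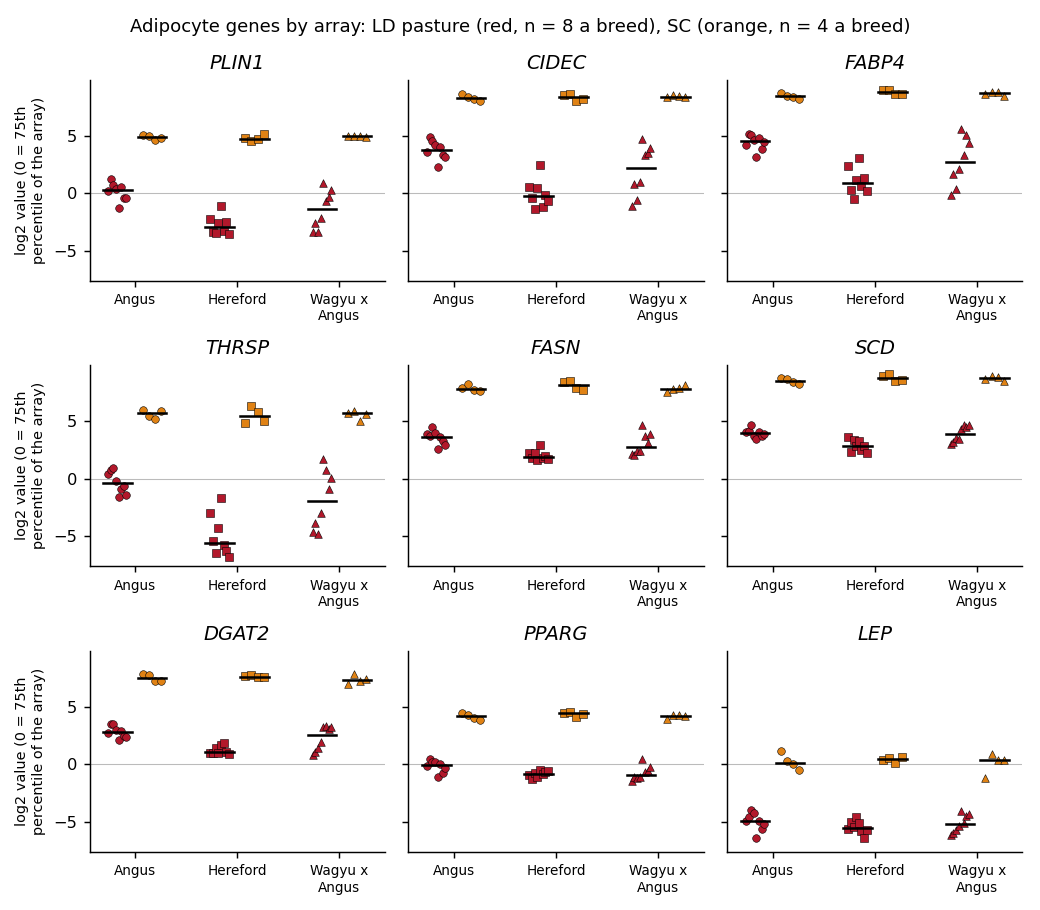
Log2 values (y axis, 0 at the 75th percentile of the array) of 9 adipocyte genes on each LD pasture array (red, 8 a breed) and SC array (orange, 4 a breed), by breed (x axis), with a black line at each median. SC arrays span less than LD arrays for each gene, although LEP runs from -1.17 to 1.19 in SC and from -6.41 to -3.96 in LD, while PLIN1 runs from -3.55 to 1.26, CIDEC from -1.37 to 4.92 and THRSP from -6.80 to 1.68 across the LD arrays, and no LD array reaches an SC array.

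Adipokines and hormone receptors were divided, with 10 of 19 higher in SC, 6 higher in LD and 3 not called, and a median difference of -0.98. LEP (leptin) ran from -6.41 to -3.96 in LD (median -5.14, 11 of 24 arrays above background) and from -1.17 to 1.19 in SC (median 0.37), a difference of -5.46 ± 0.24 (adjusted p = 1.57e-21). ADIPOQ (adiponectin) differed by -5.24 ± 0.37 and RBP4, the retinol carrier, by -5.62 ± 0.24. NAMPT, an enzyme of NAD synthesis that is also secreted, was higher in LD by 3.16 ± 0.13, without overlap. ADRB3, the beta-3 adrenergic receptor, ran from -4.87 to -3.26 in LD and from -4.97 to -3.09 in SC and was not called (0.01 ± 0.17).

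Of 21 measured adipogenic regulators, 16 were higher in SC and 5 in LD, with a median difference of -0.97. PPARG, the master regulator of adipocyte differentiation, ran from -1.42 to 0.50 in LD (median -0.70) and from 3.83 to 4.51 in SC (median 4.28), a difference of -4.83 ± 0.16 (adjusted p = 3.28e-25). CEBPA, its partner, differed by -4.56 ± 0.15 and EBF1 by -3.21 ± 0.11. MLXIPL, the carbohydrate response factor, differed by -2.40 ± 0.12, whereas SREBF1, the sterol-family factor of lipogenesis, was slightly higher in LD (0.36 ± 0.12, adjusted p = 0.00532). The call of SREBF1 was not kept in every alternative setting. KLF5 was higher in LD by 1.93 ± 0.12.

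The extracellular matrix list was uniform: all 33 measured genes were higher in SC, 24 of them at least 4-fold, with a median difference of -2.72. COL3A1, fibrillar collagen III, ran from 3.79 to 4.74 in LD (median 4.31) and from 7.05 to 7.79 in SC (median 7.29), a difference of -3.06 ± 0.09. COL1A1, collagen I, differed by -3.11 ± 0.20, SPARC, a collagen-binding glycoprotein, by -2.75 ± 0.08, COL18A1, a basement membrane collagen, by -3.87 ± 0.11 on its brightest of 5 probes (1 was called the other way), and LOX, which cross-links collagen, by -3.48 ± 0.15. CCDC80, a matrix protein made by adipocytes, differed by -3.88 ± 0.13. Of 11 fibroblast and preadipocyte markers, 9 were higher in SC, with a median of -1.76 and array scores of 0.69 to 1.80 in LD and 2.15 to 3.13 in SC. THY1 differed by -3.26 ± 0.12 and PDGFRA by -1.77 ± 0.11. DLK1, which holds preadipocytes undifferentiated and is also made in muscle, was higher in LD: 5.60 to 6.71 against 2.33 to 3.21 in SC, a difference of 3.54 ± 0.09.

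Complement and acute phase genes were higher in SC for 21 of 23 measured genes, with a median difference of -3.34. TF (transferrin) ran from -5.55 to -0.67 in LD (median -4.21, 21 arrays above background) and from 2.46 to 6.93 in SC (median 4.64), a difference of -8.85 ± 0.40 (adjusted p = 5.97e-21). CP (ceruloplasmin) differed by -6.82 ± 0.31, with 10 of 24 LD arrays above background, CFB (complement factor B) by -6.21 ± 0.31, C3 by -3.97 ± 0.25 and HP (haptoglobin) by -5.15 ± 0.26. CD59, an inhibitor of the terminal complex, was not called (0.04 ± 0.11). These genes were more variable in SC than the lipid genes: the list score ran from 2.0 to 3.67 over the SC arrays and from -1.74 to 0.10 over the LD arrays.

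Macrophage markers had the same direction between the tissues as the complement list. Of 11 measured markers, 10 were higher in SC, with a median difference of -3.01 and array scores of 0.81 to 2.45 in SC against -2.20 to -0.91 in LD. CD163, a haemoglobin scavenger receptor, ran from -5.85 to -3.02 in LD (median -4.40) and from 0.19 to 2.99 in SC (median 2.09), a difference of -6.30 ± 0.25. MSR1, another scavenger receptor, differed by -4.31 ± 0.20 and CSF1R, the receptor of the macrophage growth factor, by -3.01 ± 0.17. ITGAM was not called (-0.12 ± 0.16). Endothelial markers were higher in SC for 10 of 11 genes, with a median of -1.64 (PECAM1, -2.36 ± 0.08), and FLT1 was not called (-0.00 ± 0.12). Lymphocyte markers had no common direction, with 3 higher in LD, 2 higher in SC and 5 not called. The endothelial score ran from 0.16 to 1.47 in LD and from 2.10 to 2.91 in SC. The part of these cells in the matrix and complement differences was not tested.

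Iron and redox genes were mixed, with 10 of 18 higher in SC, 6 higher in LD and 2 not called, and a median of -0.31. MGST1, a microsomal glutathione transferase, differed by -5.96 ± 0.27, and TFRC, the transferrin receptor, was higher in LD by 5.11 ± 0.16 (3.75 to 5.33 against -1.13 to 0.27). Transferrin and its receptor thus stood at opposite sides of the comparison.

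Among the 15 widest differences on the SC side were genes outside the lists. GRP (gastrin releasing peptide) differed by -9.15 ± 0.48, with 15 of 24 LD arrays above background, and SPP1 (osteopontin) by -7.29 ± 0.35, with 16. S100G (a calcium binding protein) differed by -6.85 ± 0.41, RAB9B (a small GTPase) by -6.61 ± 0.25, SLITRK4 by -6.50 ± 0.29, the monocarboxylate transporter SLC16A7 by -6.33 ± 0.27 and the glutathione transferase GSTT2 by -7.21 ± 0.42. CLDN10, a claudin, ran from -2.0 to 3.60 in SC (median 2.71) and from -7.49 to -2.58 in LD (median -5.17), a difference of -7.52 ± 0.42. Only 5 named genes were above background on all SC arrays and no LD array, with bounds of at least 11.8-fold for BAIAP2L1, 10.6-fold for DAB1, 9.06-fold for LRRC8E, 4.19-fold for ABCD2 and 3.27-fold for HGD.

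Many of the muscle genes have a counterpart, mostly a paralog used more widely, and 34 of 40 such pairs had both genes measured. The muscle form was higher in LD in 34 of 34 pairs. Each pair was written down with a muscle form, so that this direction was largely set by the choice of pairs. The other form was higher in SC in 26 pairs, was higher in LD in 7 and was not called in 1. Over all probes, 43.0% were higher in LD and 40.6% in SC. The 26 include the calcium binding proteins CASQ1 and CALR, which are not paralogs, and the 7 include MYOZ1 and MYOZ2, which are both muscle genes. The carboxylases are an example within lipid metabolism: ACACB, whose malonyl-CoA gates fatty acid entry into mitochondria, ran from -1.28 to 1.88 in LD (median 0.47) and was above background on no SC array, so that it was at least 92.7-fold higher in LD, while ACACA was higher in SC. COX6A2 ran from 6.39 to 7.04 in LD and from -4.52 to -3.75 in SC, and COX6A1 ran from 1.46 to 2.34 in LD and from 4.66 to 5.16 in SC. The same crossing was seen for PYGM (12.32 ± 0.18) and PYGL (-2.57 ± 0.10), for PFKM and PFKL (-2.65 ± 0.09), for PGAM2 and PGAM1 (-2.39 ± 0.08), for ENO3 and ENO1 (-1.77 ± 0.10), and for the fructose bisphosphatases FBP2 (11.27 ± 0.24) and FBP1 (-4.49 ± 0.24).

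Opposite directions were not limited to metabolism. The translation elongation factor EEF1A2 differed by 10.70 ± 0.27 (above background on 2 SC arrays) and EEF1A1 by -2.23 ± 0.09. The adenine nucleotide carriers SLC25A4 and SLC25A5 differed by 4.05 ± 0.08 and -3.14 ± 0.10, the alpha-actinins ACTN3 and ACTN1 by 9.36 ± 0.12 and -2.48 ± 0.14, and the caveolins CAV3 and CAV1 by 7.45 and -2.88, where the SC side of CAV3 lay mostly below background. The pairs with both genes higher in LD included CKM with CKB, ALDOA with ALDOC, AMPD1 with AMPD3, UCP3 with UCP2, PPP1R3A with PPP1R3B and MYOZ1 with MYOZ2. In 4 of the 7, among them the pairs of CKB, ALDOC and UCP2, probes of the second gene were called in both directions, so that its direction there depends on the probe. The same holds among the 26 opposite pairs for TPM4 (1 of 6 probes higher in LD) and FITM2 (1 of 3).

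**Figure D4:**
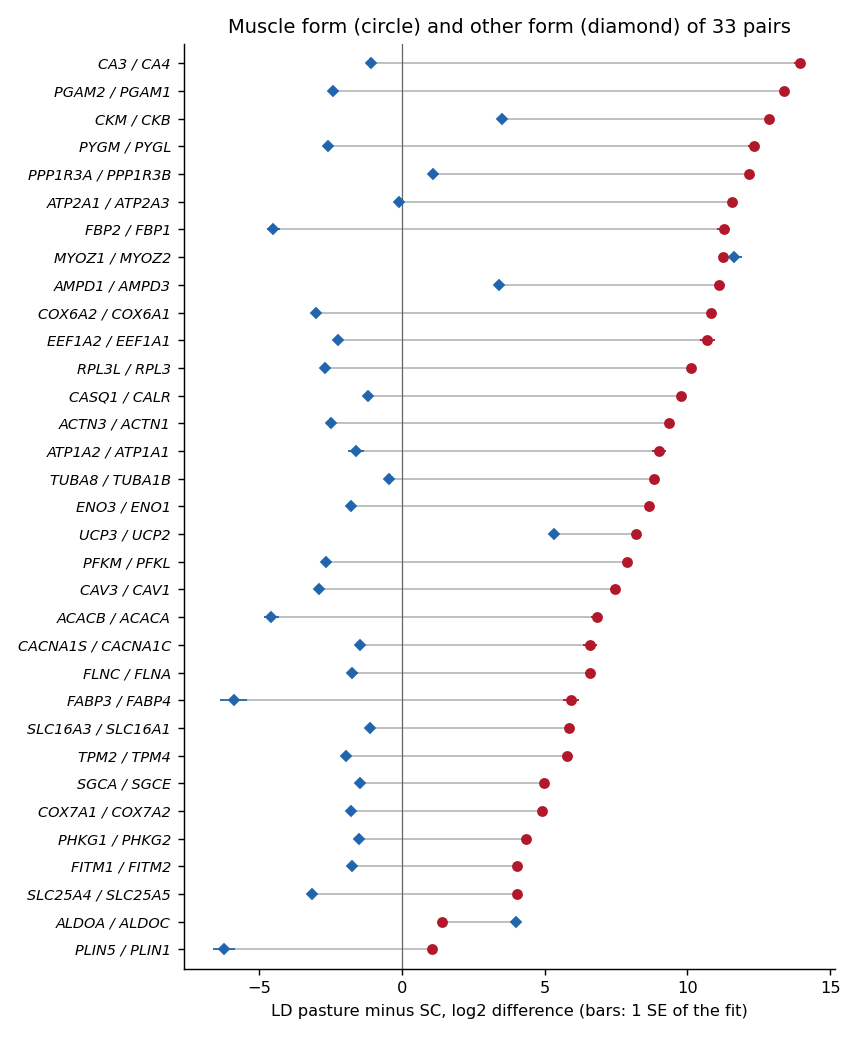
LD pasture minus SC difference on the log2 scale (x axis) of the muscle form (red circle) and the other form (blue diamond) of 33 of the 34 gene pairs (y axis), with bars of 1 SE. All circles lie above 0, and 26 diamonds lie below 0 past the threshold, from PLIN1 at -6.22 to TUBA1B at -0.45, while ACACB and PPP1R3A are plotted at fitted values although no SC array read them above background.

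Adipocyte genes were the most variable part of the comparison on the LD side. Over the 7 adipocyte markers the median SD among LD arrays was 1.45, against 0.23 among SC arrays. By breed, scores within LD ran from -1.14 to 0.95 in Angus (median 0.04), from -2.43 to -0.49 in Hereford (median -1.69) and from -2.16 to 0.85 in Wagyu x Angus (median -1.05), and these ranges overlapped. Scan days, each on slides of its own within a breed, had no common order. The 4 Wagyu x Angus arrays scanned on the first day lay between -2.16 and -1.40, below the 4 scanned on the last day at -0.70 to 0.85. In Angus the last day (-1.14 to 0.50) overlapped the second (-0.13 to 0.95) with a lower median, and in Hereford the first day (-1.94 to -1.23) lay within the range of the second (-2.43 to -0.49). In the 12 LD arrays with supplement the score ran from -2.47 to -0.82, and in the 12 arrays of dissected IMF it ran from 1.75 to 4.08. The median difference of the 7 markers was -5.46 (the value of LEP) over all breeds, -4.34 within Angus and -6.48 within Hereford. The part of breed, slide, scan day and kill in this spread was not tested, and the labels do not give the kill of an LD array.

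Breed dependence of the tissue difference was limited. Across all probes, 88 (0.257%) passed an interaction test, and 1 probe passed on the deposited value table. Among named genes 34 passed, and MPP1, HPRT1, S100A5 and CDKN1C were the 4 with the smallest p. CDKN1C, an inhibitor of the cell cycle, was steady in LD, with medians of 2.85 for Hereford, 2.28 for Angus and 2.61 for Wagyu x Angus, while in SC Hereford arrays ran from 4.82 to 5.61 and Wagyu x Angus arrays from 2.48 to 3.80. Its differences were -2.32 in Hereford, -1.44 in Angus and -0.64 in Wagyu x Angus (interaction adjusted p = 0.00983). MPP1, a membrane scaffold protein, had the same order, with -1.91, -1.16 and -0.51 (adjusted p = 0.00206). S100A5 had the opposite order in SC: Hereford arrays lay between -0.62 and 1.09 and Wagyu x Angus arrays between 2.65 and 3.44, with tissue differences of -0.71 in Hereford, -2.93 in Angus and -3.62 in Wagyu x Angus (adjusted p = 0.00327). HPRT1, an enzyme of purine salvage, differed by 0.52 in Hereford, -0.42 in Angus and -0.31 in Wagyu x Angus (adjusted p = 0.00327).

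A single SC array stood apart for muscle-type genes of another kind. On the Hereford SC array at position 2 of its slide, DES (desmin, of all muscle types) read 6.57, against 0.96 to 2.0 on the other 11 SC arrays. MYH11, the smooth muscle myosin, read 6.59 against 0.52 to 2.02, CNN1 (calponin) read 6.04 against 0.55 to 1.78, and FBXO32 read 3.99 against 0.38 to 1.24. ACTA1 read 0.66 against -1.41 to -0.42, and MYH7, at -2.17, lay within the range of the others (-2.42 to -1.36). Of 10 smooth muscle markers, 4 were higher in LD, 2 were higher in SC and 4 were not called over all 36 arrays, with a median of 0.49. Without this array 7 were higher in LD and 1 in SC, with a median of 0.83, and CNN1 (0.91, adjusted p = 4.26e-05, from 0.50) and MYH11 (0.93, adjusted p = 8.1e-06, from 0.51) were called. Whichever SC array was left out, between 28326 and 28578 probes differed between the tissues. The part of smooth muscle in the values of this array was not tested.

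Markers of nerve, tendon and satellite cells were read as well. Of 10 Schwann cell markers, 5 were higher in LD, 2 were higher in SC and 3 were not called. MBP, a structural protein of myelin, was higher in LD by 3.57 ± 0.25, with ranges that met (-0.90 to 1.63 in LD and -4.06 to -0.89 in SC). S100B, found in Schwann cells and also in adipocytes, was higher in SC (-2.89 ± 0.11). Of 8 tendon markers, 6 were higher in LD, among them THBS4 (3.37 ± 0.18) and TNMD (3.95 ± 0.63, above background on 2 SC arrays, 1 of them the array described above). The satellite cell markers CDH15, MYF5 and NCAM1 were all higher in LD, by 4.54 ± 0.11, 3.40 ± 0.20 (MYF5, above background on 3 SC arrays) and 2.60 ± 0.20. Skin and epithelial markers were split, with 6 of 11 higher in LD and 5 in SC, and of 5 erythrocyte markers 2 were higher in LD, 1 was higher in SC and 2 were not called. Of 18 HOX genes, 9 were higher in LD, 6 were higher in SC and 3 were not called. Over all probes 43.0% were higher in LD and 40.6% in SC, so that no direction is given for the Schwann cell, skin, erythrocyte and HOX lists.

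The same genes were then read in arrays that the comparison had not used, namely the 12 LD arrays with supplement against the mean of 36 arrays of intermuscular (Inter), kidney (Kid) and omental (Omen) fat. Before scaling, the median log2 75th percentile was 8.58 on the LD supplement arrays, against 10.20, 10.11 and 10.01 on Inter, Kid and Omen arrays. For LD pasture and SC it was 9.27 and 9.05. Probes well above background made up 70.6% to 78.6% on the LD supplement arrays and 77.6% to 96.5% on the Omen arrays. No LD supplement array was scanned on the last day, when 10 of the 12 Omen arrays were. The part of brightness and scan day was not tested. In that comparison LD was higher for 42.1% of probes and the fats for 40.3%. Of the muscle programme genes 183 were higher in LD there too, 182 of them the same as before, and the median difference was 5.39. Of the fat programme genes 137 were higher in the fats, 130 of them the same as before, with a median of -1.74. Fibre genes were not absent from every fat array: the fibre score lay above -2.67, the highest among SC arrays, on 5 of 12 Inter arrays (up to 5.14) and 4 of 12 Kid arrays (up to -0.12), while the highest Omen array was at -2.80. Over all named genes, 7986 of 9209 genes called between LD and SC (86.7%) were called in the same direction in the other arrays and 229 (2.49%) in the opposite one. The animals behind both comparisons may be the same, since the labels do not identify them.

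Of 2360 genes at least 4-fold apart between LD and SC, 6 were called in the opposite direction in the other arrays, and they are named here because of that. HOXA10, EN1 and SHOX2 are homeobox genes that mark position along the body, and CXCL14 is a chemokine. HOXA10 ran from 0.64 to 2.16 in SC (median 1.36) and from -3.83 to -0.20 in LD (median -1.53), a difference of -3.12 ± 0.30. In the other arrays LD was higher than the fats by 2.94, with medians of -5.29 in Inter, -0.27 in Kid and -8.38 in Omen, where 1 of 12 arrays read it above background. EN1 differed by -3.05 from LD to SC and by 1.21 in the other arrays, CXCL14 by -2.55 and 1.15, and SHOX2 by -2.43 and 0.54. SC was thus high for these 4 genes while LD lay between SC and the mean of Inter, Kid and Omen. Dissected IMF was not part of that mean. Its mean lay above that of SC for SHOX2 and below it for HOXA10, EN1 and CXCL14. Inter lay above LD with supplement for SHOX2 (means of 0.19 and -1.31) and CXCL14 (1.06 and -0.46), and was close to it for EN1 (-3.65 and -3.87). Kid and Omen lay below LD with supplement for SHOX2 (-2.62 and -3.13) and CXCL14 (-3.11 and -2.79).

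The remaining pair, UCP1 and NR4A3, were higher in LD than in SC, and lower in LD with supplement than in the other fats. UCP1, the uncoupling protein of brown fat, was detected in 18 of 24 LD arrays against 2 of 12 SC arrays, and differed by 2.16 between LD and SC and by -1.53 in the other arrays, where 12 of 12 Omen arrays and 4 of 12 LD arrays with supplement read it above background. With the LD supplement arrays in place of the pasture arrays, its difference from SC was 0.47 (adjusted p = 0.314). NR4A3, an orphan nuclear receptor induced early by stimuli, differed by 2.76 and -0.79, with 4 of 12 SC arrays above background. Within the fat lists, COL1A1 differed by -3.11 between LD and SC and by -0.21 between LD with supplement and the other fats. Both the LD arrays and the depots change between these values, and LD with supplement differed from SC by -2.22. ADRB3 differed by 0.01 between LD and SC, by 0.15 between LD with supplement and SC, and by -3.97 between LD with supplement and the other fats. Set against the mean of the other fats, with the SC arrays that also enter the main comparison, 82 of the 179 fat programme genes were higher in SC and 21 lower, beside 27.3% and 22.6% of all probes.

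**Figure D5:**
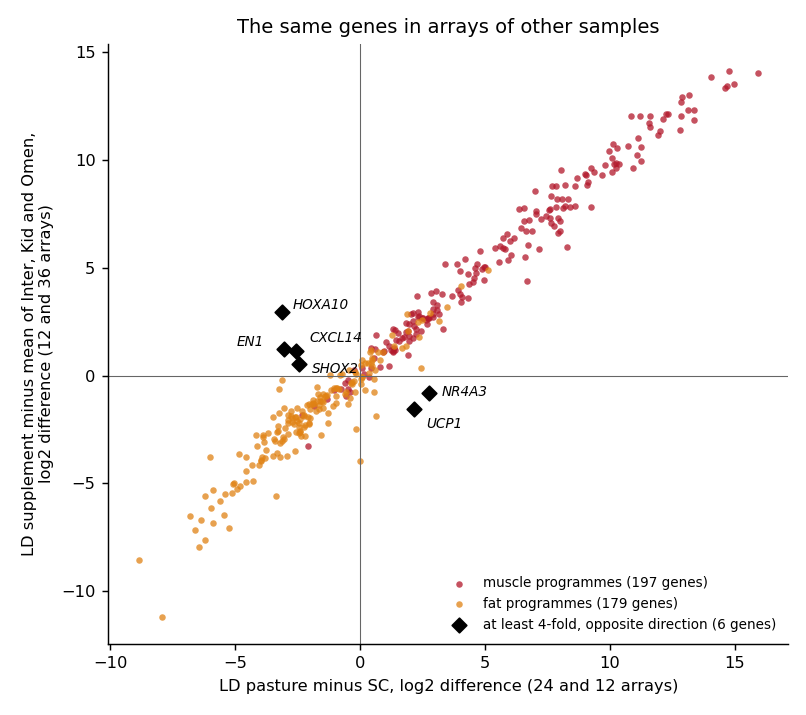
LD pasture minus SC (x axis) against LD supplement minus the mean of Inter, Kid and Omen (y axis), both log2 differences, for the 197 muscle (red) and 179 fat (orange) programme genes, with the 6 genes of opposite direction as black diamonds. No array enters both axes, HOXA10 lies at -3.12 and 2.94, and UCP1 lies at 2.16 and -1.53.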

How the data were processed

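Total RNA of 96 bovine samples was extracted with Trizol and hybridised to the 4x44K one colour Agilent array. The authors deposited scanner output, in which the processed signal is an intensity from which Feature Extraction 10.7.3.1 had subtracted the background, and a value table of log2 signals for 34227 probes, used to choose the probes and as an alternative. Here each array's log2 values were shifted so that the 75th percentile over 43653 non-control probes became 0, after dropping spots with an outlier mark, and no filter on dim probes was used. LD and SC were compared with limma 3.58.1 in R 4.3.3 (lmFit, eBayes, breed as covariate), with Benjamini-Hochberg adjustment over all probes and a threshold of 0.05. Breed dependence was tested by the interaction terms on the same arrays. The number of arrays limits the precision.

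Genes were named from RefSeq accessions (19903 probes, assembly ARS-UCD2.0) and the tables of the study (1544 more), which name 62.7% of the probes for 10655 genes. The brightest probe over the 36 arrays stood for a gene. Where no array of 1 tissue read a probe above background, the fold is a lower limit: the mean of the bright group over that of the lowest signal above background on the dim arrays. The genes given singly are the 15 widest differences each way without overlap and detected in 50% or more of the arrays in both tissues, the 5 highest bounds each way, members of the lists, marker lists and pairs, and the genes with the smallest p for breed dependence. A few genes of these lists are not reported here singly. The comparison, gene lists and pairs were chosen with earlier results of these data known, while the arrays within the comparison follow the labels alone. No sequence or coordinate is given. The fits were tested on simulated data. Python 3.11.15, numpy 2.4.6, pandas 2.3.3 and matplotlib 3.10.9 served for scores and figures. Alternatives were quantile normalization, mean centring, normexp (offset 50), the value table, all non-control probes, bright probes alone, no breed covariate, the t-test of the methods, all 96 arrays in 1 fit, blocks for scan day, slide or replicate number, single breeds, LD with supplement in place of pasture, each SC array left out, and other probes for a gene. The study's own mixed model was not rerun.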

Additional observations from a re-analysis of the deposited data

Results flagged for a closer look

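Among named genes, the 4 with the smallest interaction p passed the test of breed dependence in limma fits of the 36 arrays. Their interaction adjusted p-values were 0.00206 for MPP1, 0.00327 for HPRT1, 0.00327 for S100A5 and 0.00983 for CDKN1C. Over all probes 88 passed in that fit, but 16 with the replicate block and 1 on the value table.

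List scores of single arrays lay far from the other arrays of their breed and tissue in 14 of 210 tests, where chance gives about 1 in 20. In SC, the Hereford array at position 2 of slide 17 had a smooth muscle score of 3.82 against 0.84 to 1.14 and a tendon score of -1.49 against -3.36 to -3.34. The Hereford SC array at position 4 of slide 16 had a complement score of 3.29 against 2.0 to 2.17 and a glycogen and glycolysis score of 0.97 against 0.62 to 0.63. The Wagyu x Angus SC array at position 2 of slide 16 had a thick filament score of -3.47 against -5.43 to -5.17 and a thin filament score of -1.91 against -2.31 to -2.25.

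In Angus LD, the array at position 4 of slide 23 had a citric acid cycle score of 4.99 against 4.51 to 4.73 and a skin score of -4.25 against -3.56 to -2.97, and the array at position 4 of slide 2 had a macrophage score of -0.91 against -1.99 to -1.56. In Hereford LD, the array at position 3 of slide 24 had a HOX score of -3.02 against -2.36 to -1.92 and a respiratory chain score of 5.85 against 5.61 to 5.72, and the array at position 4 of slide 13 had a fibroblast score of 1.80 against 1.12 to 1.43. In Wagyu x Angus LD, a respiratory chain score of 5.54 against 5.73 to 5.90 was read at position 1 of slide 20 and a skin score of -4.04 against -3.51 to -3.16 at position 2. The causes were not tested.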

How the results depend on the processing

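The counts of probes differing between LD and SC stayed within 1.5 times. They ran from 23204 in Hereford alone to 33516 over all non-control probes, a set of 43653 instead of 34227. They were 25618 with slide as a random block and 23855 with normexp. The last scan day alone, with a single SC array assumed to vary like the LD arrays, gave 21393 and is no test of stability. Leaving out 1 SC array at a time gave 28326 to 28578. The muscle programme count of 183 ranged from 178 to 186, the fat programme count of 137 from 125 to 139, and the 26 opposite isoform pairs from 24 to 26 (23 on the last scan day alone). Breed dependence was weaker, with 1 probe on the value table and 16 with the replicate block, against 88. For LD with supplement against the other fats, the unscaled value table gave 3742 probes higher in LD and 25901 higher in the fats. The main fit on scaled values gave 14416 and 13808. The part of array brightness in this change was not tested. The replicate numbers of the labels equal positions on a slide and were not used to pair samples. Deviations of same-numbered LD and SC arrays correlated at 0.121, 0.0476, -0.0307 and 0.0763. They were averaged over breeds first, so that these values cannot exclude pairs within a breed. With the replicate block, 28519 probes differed between LD and SC and 28247 in the other comparison.

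Medians changed sign for HOX genes (-0.01 with LD supplement), skin markers (-0.90 with the probe of largest difference and -0.17 with probe means) cytosolic ribosomal proteins (-0.47 under quantile normalization, from 0.11) and smooth muscle markers (-0.22 in Hereford alone). Of 214 genes named, 187 had the same call in all 33 settings for genes. In at least 1 setting, 14 lost their call (ABCD2, ACLY, CHRNA1, COX4I2, HGD, HOXA10, MYOD1, PGAM1, PPP1R3B, PVALB, SCD5, SREBF1, TUBA1B and UCP1). Quantile normalization turned ACADS (-0.39) and ETFB (-0.43), the last scan day alone turned COX4I2 (0.03), and HPRT1 was 0.52 in Hereford. The probe with the largest difference turned ACSF3 (0.44), AGPAT3 (0.38), CHRNA1 (2.26, or 0.89 over probe means), CKB (-5.59) and FLT1 (0.49). The causes were not tested. Signals near background limit the size of differences on the SC side of many muscle genes and on the LD side of genes such as LEP.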
